A study of Homo sapiens with 6 samples.

Results

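The 7 genes of the endothelin family were followed in A2780 ovarian cancer cells, and 1 of them, EDN2, stood far apart from the others. The family was taken as 3 ligand genes (EDN1, EDN2, EDN3), 2 receptor genes (EDNRA, EDNRB) and 2 converting enzyme genes (ECE1, ECE2), matched by symbol among the 44591 genes listed. It was selected on measured values of these same libraries, because EDN2 had the largest rise of all sufficiently counted genes. What follows for the 7 genes is therefore a description. No p-value is given for them, and where their calls are counted, nothing is read from the count. RNA-seq compared 3 libraries of untreated cells with 3 libraries of cells that received human recombinant collapsin response mediator protein 2 (r-CRMP2) at 40 ng/ml for 48 h. A2780 is an established human ovarian carcinoma line, used here unmodified (genotype WT), and both groups grew in DMEM with fetal bovine serum. The study asked what CRMP2, a cytoskeletal protein that cancer-associated fibroblasts can release, does to gene expression in the cancer cells. No vehicle was described for the untreated cells, and nothing states whether the 3 libraries of a group came from separately treated cultures, so the spread between them may be technical in part.

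Endothelins are short vasoactive peptides cut from longer precursors. Furin-type proteases release big endothelin, and the membrane metalloproteases ECE1 and ECE2 trim it to the active peptide. The peptides act on 2 G protein-coupled receptors. EDNRA (the ETA receptor) binds endothelin-1 and endothelin-2 far better than endothelin-3, whereas EDNRB (the ETB receptor) binds all 3 and also clears them. Both receptors signal mainly through Gq/11 and phospholipase C, and also through other G proteins. Endothelin-1 is best known from vascular endothelium and as an autocrine growth factor of ovarian carcinoma. Endothelin-2 is known in the ovary from the granulosa cells of the follicle around ovulation, and endothelin-3 from neural crest development.

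The 3 ligand genes are related, and reads could in principle be shared between them. To show how far they differ where they are most alike, 63 coding bases (21 codons) from the peptide-coding part of each gene follow, aligned in frame without gaps. They come from the GENCODE reference transcripts in GRCh38 and span exons 2 and 3 in each gene. The EDN2 stretch lies at chr1:41482582-41484102 (minus strand), that of EDN1 at chr6:12292454-12293947 (plus strand) and that of EDN3 at chr20:59301667-59321023 (plus strand), introns included. Capitals mark the bases that differ from EDN2.
EDN2: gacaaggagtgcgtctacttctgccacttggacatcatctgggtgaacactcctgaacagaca
EDN1: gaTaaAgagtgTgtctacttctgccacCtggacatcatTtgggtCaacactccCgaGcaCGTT
EDN3: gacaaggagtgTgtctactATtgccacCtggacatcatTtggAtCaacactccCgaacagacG
EDN1 differed from EDN2 at 12 of the 63 bases (81.0% identity) and EDN3 at 9 (85.7% identity), while EDN1 and EDN3 differed from each other at 10. No run of 50 or more identical bases linked EDN1, EDN2, EDN3, EDNRA or EDNRB to a transcript of any other gene. Such runs were found for the converting enzymes alone. ECE1 shared 62 bases with RBBP5, and ECE2 shared 2968 bases with the readthrough gene EEF1AKMT4-ECE2, so the ECE2 counts are uncertain.

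Library totals lay between 21888530 and 25711353 counts. Of 16222 genes with enough counts to be tested, 831 were upregulated and 1437 downregulated (adjusted p below 0.05 and a log2 fold change beyond 1, edgeR). Scaling by library totals alone, without TMM (trimmed mean of M values) factors, gave 489 and 2553, since it moved the median log2 fold change of all tested genes from -0.03 to -0.34. Of 8 epithelial and ovarian cancer line markers 6 were tested, and none passed both thresholds (14.0% of all tested genes did). The epithelial keratin genes KRT8 and KRT18 were abundant (1362 and 1986 TPM, the deposited level per gene length, on average in untreated cells). EPCAM, KRT19, PAX8 and MUC16 averaged only 6.30, 2.32, 2.44 and 2.38 TPM there, and CDH1 and WT1 had 10 and 6 summed counts. Some marker genes of other cell types moved, and their part in the results below was not tested. Among 7 endothelial markers, 4 were tested and CDH5 (VE-cadherin) alone fell past both thresholds (log2 fold change -1.96, adjusted p = 8.48e-08, edgeR); their summed level was 4.34 to 4.68 TPM in untreated and 1.11 to 1.59 TPM in r-CRMP2 libraries. None of 7 tested fibroblast markers of 8 passed both thresholds, with summed levels of 226.0 to 265.7 TPM and 157.8 to 170.3 TPM. Their median log2 fold change was 0.21, against -0.03 over all tested genes. The deposited TPM carry no TMM factors, so sums of TPM hold the same shift of scale as library totals. COL3A1, for example, had a ratio of 1.01 in CPM but 0.803 in TPM (r-CRMP2 over untreated). Of 6 leukocyte markers, only CD68, a lysosomal protein also made outside leukocytes, was tested and rose (log2 fold change 1.69, adjusted p = 3.01e-12, edgeR), while PTPRC (CD45) had 4 and 7 summed counts. No cells of these types were described as part of the A2780 cultures. COL1A1 averaged 172.3 TPM and CDH5 3.11 TPM in untreated libraries, so much of the fibroblast and endothelial sums lay in these genes. Bulk RNA gives no count of cells, and which cells made this RNA was not tested.

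EDN2 (chr1:41944446-41950354, minus strand, hg19) encodes the precursor of endothelin-2. It had 68, 73 and 54 counts untreated, against 2151, 3317 and 3478 counts with r-CRMP2. Every r-CRMP2 library lay far above every untreated one, and r-CRMP2 replicate 1 was the lowest of its group. In CPM (counts scaled to a common library size, with TMM factors), the untreated libraries gave 2.45, 2.98 and 1.97, and the r-CRMP2 libraries 100.7, 167.7 and 151.4. The ratio of the means (2.46 ± 0.501 and 139.9 ± 34.9 CPM, SD, n = 3 each) was 56.8. The fitted log2 fold change was 5.83 (SE 0.28) and ranged from 5.70 to 6.04 when any 1 library was left out. Per length, the level went from 4.80 ± 1.01 TPM to 215.7 ± 46.2 TPM (SD, n = 3), a ratio of 45.0. EDN2 thereby moved from place 11305, 10758 and 11946 in the TPM ranking of a library's genes to place 846, 556 and 585. ANKRD37 followed at some distance as the second largest rise (log2 fold change 4.43).

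EDN1 (chr6:12290529-12297427, plus strand, hg19), the gene of endothelin-1, showed no such separation. Its libraries held 60, 44 and 64 counts untreated and 52, 32 and 41 counts with r-CRMP2. The levels were 2.16, 1.79 and 2.34 CPM against 2.43, 1.62 and 1.79 CPM, so the groups overlapped, and both the highest and the lowest library were r-CRMP2 libraries. Means were 2.10 ± 0.278 CPM and 1.95 ± 0.431 CPM (SD, n = 3), with a fitted log2 fold change of -0.11 (SE 0.20). EDN3 (chr20:57875482-57901047, plus strand, hg19), the gene of endothelin-3, had 1, 3 and 1 counts untreated and 0 in each r-CRMP2 library. The 5 summed untreated counts (95% exact Poisson interval 1.62 to 11.7, counting error only) are at the edge of detection. No library exceeded the floor of 3 counts, so no fold is given, and 0 counts do not show that EDN3 RNA was absent.

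**Figure D1:**
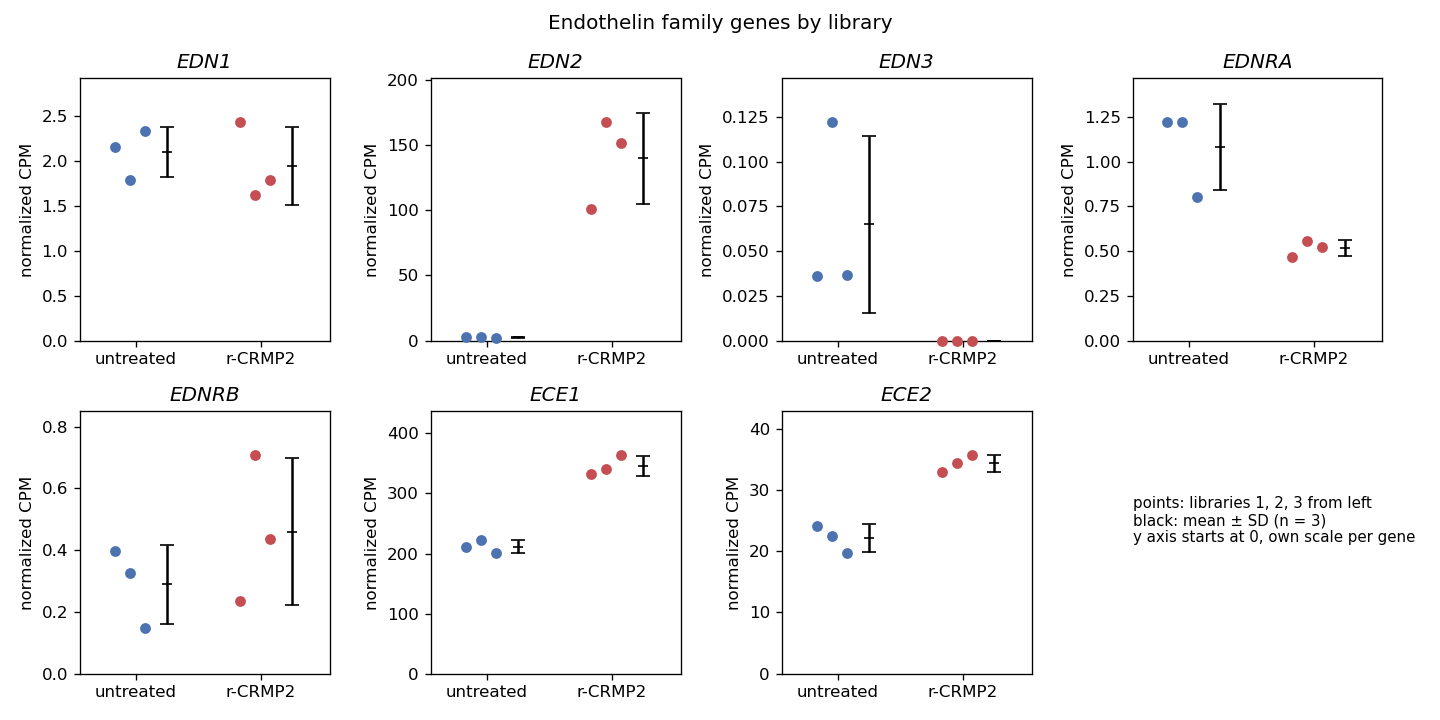
Normalised CPM of each family gene in the 3 untreated and 3 r-CRMP2 libraries, 1 panel per gene with its own linear axis; points are libraries and bars are the mean and SD. The EDN2 points separate widely, between 1.97 and 2.98 CPM untreated and between 100.7 and 167.7 CPM with r-CRMP2, while the EDN1 and EDNRB points overlap between the groups.

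The bases upstream of the first transcribed base are shown for EDN2 and for the most downstream of 3 EDN1 windows, because the ligands differed in response. Sequences are the RefSeq promoter windows of GRCh38.p14, from 250 bases upstream to the base before the start; 5 of the 7 symbols had a window. Capitals mark a match to the core of the hypoxia response element (ACGTG or GCGTG, searched on both strands, overlaps allowed) or to the TATA box TATAAA (forward strand). The EDN2 window lies at chr1:41484684-41484933 (minus strand) and the EDN1 window at chr6:12290111-12290360 (plus strand).
EDN2: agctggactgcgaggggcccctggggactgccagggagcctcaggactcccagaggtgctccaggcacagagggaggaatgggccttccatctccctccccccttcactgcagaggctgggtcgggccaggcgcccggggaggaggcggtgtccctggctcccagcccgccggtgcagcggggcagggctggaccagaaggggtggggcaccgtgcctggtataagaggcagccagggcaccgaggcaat
EDN1: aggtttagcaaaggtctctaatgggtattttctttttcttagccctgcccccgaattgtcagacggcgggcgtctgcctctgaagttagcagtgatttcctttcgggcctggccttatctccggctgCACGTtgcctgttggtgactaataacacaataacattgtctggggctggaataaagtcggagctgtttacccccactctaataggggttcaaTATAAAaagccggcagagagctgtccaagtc
The EDN2 window, with 70.8% G or C, held no exact match to the hypoxia core, to TATAAA or to the AP-1 motif TGANTCA (both strands). Close to the start it holds tataag, which differs from TATAAA at the last base only. Such variants were not searched, so the missing match does not show that EDN2 lacks a TATA box. In this EDN1 window, a hypoxia core on the reverse strand began 123 bases upstream and TATAAA began 31 bases upstream. The other EDN1 windows held 3 and 0 hypoxia cores. These letters are common. Among all 34943 windows of that length, 43.2% held the hypoxia core, 6.59% the AP-1 motif and 6.82% TATAAA on the forward strand. A match is a description and not a site, and a missing match covers only these 250 bases.

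Both receptor genes were weakly expressed in either group. EDNRA (chr4:148402069-148466106, plus strand, hg19) had 34, 30 and 22 counts untreated and 10, 11 and 12 counts with r-CRMP2. In CPM the libraries gave 1.22, 1.22 and 0.804 against 0.468, 0.556 and 0.523, and all r-CRMP2 libraries lay below all untreated ones. The mean went from 1.08 ± 0.242 CPM to 0.516 ± 0.0444 CPM (SD, n = 3), with a fitted log2 fold change of -1.06 (SE 0.20). This lies just beyond the fold threshold of 1, and the call was lost in 3 of the 6 fits that left out a library. The value was -0.99 without r-CRMP2 replicate 1, -0.96 without untreated replicate 1 and -0.97 without untreated replicate 2. EDNRB (chr13:78469616-78549858, minus strand, hg19) had 11, 8 and 4 counts untreated and 5, 14 and 10 with r-CRMP2, too few to enter the fit. Its libraries overlapped, at 0.396, 0.326 and 0.146 CPM against 0.234, 0.708 and 0.435 CPM, and the log2 CPM difference was 0.51 (SE 0.50).

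The EDNRA promoter window (chr4:147480847-147481096, plus strand, GRCh38.p14) is given as that of the 1 other family gene past both thresholds.
EDNRA: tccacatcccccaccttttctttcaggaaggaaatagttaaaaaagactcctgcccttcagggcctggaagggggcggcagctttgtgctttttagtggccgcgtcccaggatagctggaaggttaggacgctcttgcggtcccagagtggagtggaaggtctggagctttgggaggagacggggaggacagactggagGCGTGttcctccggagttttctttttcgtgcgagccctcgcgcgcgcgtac
It held 1 hypoxia core, GCGTG, starting 51 bases upstream, and no TATAAA or TGANTCA. The 2 EDNRB windows held 2 and 5 hypoxia cores, and the 4 ECE1 windows 0, 0, 1 and 2.

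The converting enzymes were the abundant family genes of untreated cells. ECE1 (chr1:21543740-21672034, minus strand, hg19), the main endothelin-converting enzyme, had 5854, 5456 and 5504 counts untreated and 7087, 6745 and 8360 counts with r-CRMP2. In CPM these were 210.5, 222.3 and 201.2 against 331.7, 341.0 and 364.0, without overlap. The mean went from 211.3 ± 10.6 CPM to 345.6 ± 16.6 CPM (SD, n = 3), a log2 fold change of 0.71 (SE 0.06), below the fold threshold. ECE2 (chr3:183967445-184010819, plus strand, hg19), a related enzyme of neuroendocrine tissue, had 672, 550 and 537 counts against 702, 681 and 819. Its levels of 24.2, 22.4 and 19.6 CPM untreated and 32.9, 34.4 and 35.7 CPM with r-CRMP2 did not overlap either. The mean went from 22.1 ± 2.29 CPM to 34.3 ± 1.40 CPM (SD, n = 3), a log2 fold change of 0.64 (SE 0.09). With library totals alone as the scale, where the median gene stood at -0.34, the log2 fold changes were 0.40 for ECE1, 0.33 for ECE2, -0.42 for EDN1, -1.37 for EDNRA and 5.52 for EDN2. Signs were the same under both scales, and EDN1, with a value close to the median gene, overlapped between the groups under both.

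Of the 7 family genes 5 were tested, and 2 passed both thresholds, against 14.0% of all tested genes. EDN2 was the 1 member higher, against 5.12% of all tested genes, and EDNRA the 1 member lower, against 8.86%. At the adjusted p threshold alone, 4 of the 5 passed (background 58.2%), and 4 of the 5 had groups that did not overlap in CPM (background 64.2%). Nothing is read from these counts, since the family was chosen with this contrast known.

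Compared per length, the order of the family changed at the top. In untreated cells the mean levels ran from ECE1 (89.8 TPM) over ECE2 (12.3 TPM), EDN2 (4.80 TPM), EDN1 (2.43 TPM) and EDNRA (0.636 TPM) to EDNRB (0.139 TPM) and EDN3 (0.0595 TPM). Only the last pair overlapped in their libraries. With r-CRMP2, EDN2 (215.7 TPM) stood above ECE1 (117.1 TPM), followed by ECE2 (15.3 TPM), EDN1 (1.81 TPM), EDNRA (0.241 TPM), EDNRB (0.174 TPM) and EDN3 (listed at 0). The receptor pair overlapped there, and the other neighbours were apart.

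Summed ligand RNA went from 7.29 ± 0.740 TPM to 217.5 ± 45.7 TPM (SD, n = 3). EDN2 supplied 65.2%, 72.5% and 58.3% of it without treatment, and 98.6%, 99.4% and 99.3% after r-CRMP2. The EDN1 share went from 33.9% ± 7.58 to 0.898% ± 0.458 (SD, n = 3) although its own level overlapped between the groups. For the receptors the sum went from 0.775 ± 0.199 TPM to 0.415 ± 0.0920 TPM, with a mean EDNRA share of 82.7% (79.0% to 87.0%) and 59.7% (48.9% to 70.9%). TPM carry no TMM factors, so the sums of the groups differ in scale. The ratio of EDNRA was 0.476 in CPM and 0.379 in TPM, and that of EDNRB 1.59 and 1.25. The receptor shares are uncertain, since EDNRB had only 4 to 14 counts per library and overlapped between the groups. ECE1 held a near equal part of the enzyme sum in both groups, 87.9% ± 0.928 and 88.5% ± 0.156 (SD, n = 3). These shares are of RNA and give no information on peptide.

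**Figure D2:**
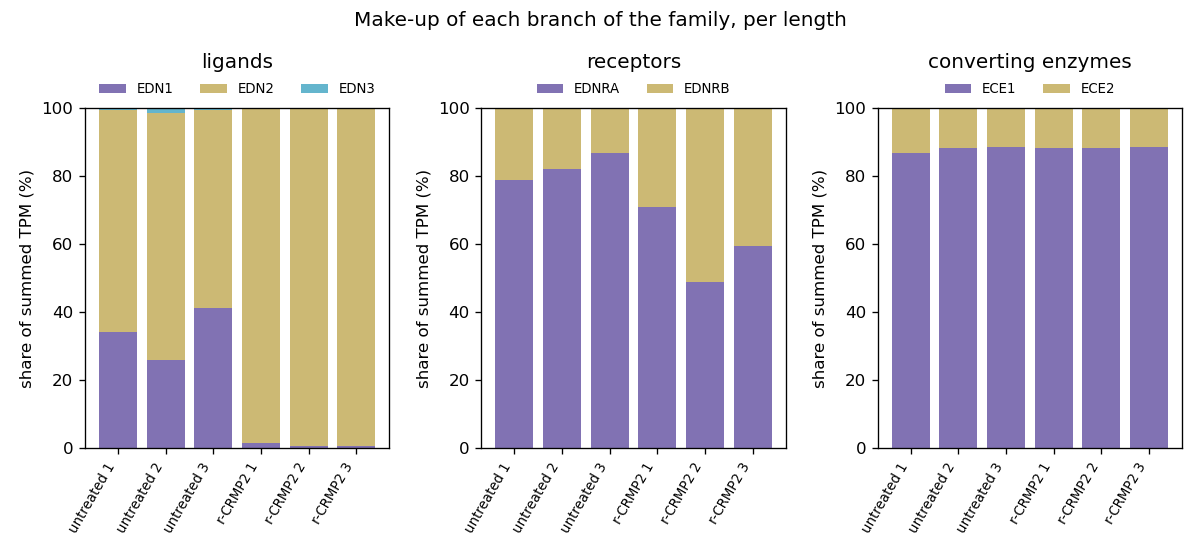
Stacked bars give, for each of the 6 libraries, the percentage of the summed TPM of ligands, receptors and converting enzymes that each gene supplied. EDN2 fills between 58.3% and 72.5% of the ligand bar in untreated libraries and between 98.6% and 99.4% in r-CRMP2 libraries, while the enzyme bars stay near 88% ECE1.

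None of the 4 nearest tested genes around EDN2 passed both thresholds, against 14.0% of all tested genes. Nothing is read from a count of 4 genes. HIVEP3, a zinc finger gene 21.7 kb away, had 4.39, 5.54 and 5.70 CPM untreated and 4.40, 5.31 and 3.66 CPM with r-CRMP2 (log2 fold change -0.23, SE 0.19, adjusted p = 0.267, edgeR). On the other side, FOXO6, a forkhead factor gene 95.2 kb away, had a log2 fold change of 0.79 (SE 0.13, adjusted p = 8.63e-07, edgeR). SCMH1, a Polycomb group gene 237 kb away, gave 0.25 (SE 0.05, adjusted p = 0.0124), which turned to -0.06 (adjusted p = 0.53) with library totals alone and had an adjusted p of 0.0503 without r-CRMP2 replicate 1 (edgeR). On the side of HIVEP3, FOXJ3, a forkhead gene 692 kb away, gave 0.66 (SE 0.04, adjusted p = 5.38e-08, edgeR). The scale mattered for these genes too. With library totals alone FOXO6 was at 0.48 (adjusted p = 0.000289), FOXJ3 at 0.35 (adjusted p = 0.000244) and HIVEP3 at -0.54 (adjusted p = 0.012, edgeR). The levels of all 4 neighbours differed by far less than that of EDN2. The only listed gene overlapping EDN2 was the transfer RNA entry TRNAN-GUU, whose row spans much of the chromosome and which had 2 counts untreated and 0 with r-CRMP2.

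**Figure D3:**
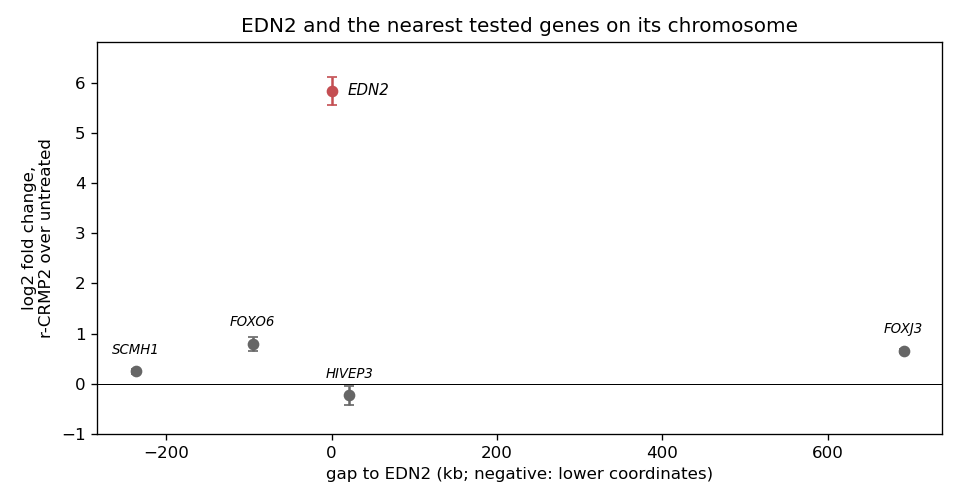
Log2 fold change (r-CRMP2 over untreated) of EDN2 and of the 2 nearest tested genes on each side, against their distance from EDN2 in kb; bars are standard errors. EDN2 stands at 5.83, and the 4 neighbours lie between -0.23 and 0.79.

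Around the 7 members together, 28 neighbouring genes were examined, of which 1 rose and 5 fell past both thresholds, against 5.12% and 8.86% of all tested genes. The riser was VWA5B2, 7.33 kb from ECE2 (log2 fold change 1.11, SE 0.20, adjusted p = 0.00529, edgeR), at 0.80 and under the fold threshold with library totals alone. The genes that fell were TMEM170B (707 kb from EDN1), NBPF3 (94.5 kb from ECE1), and ZNF831, FAM217B and PPP1R3D (41.3, 608 and 611 kb from EDN3). Nearest tested genes can thus lie far from a member. FAM217B and PPP1R3D overlap each other, as do TBC1D7 and its readthrough gene (969 kb or more from EDN1), so their counts are not independent. NBPF3 belongs to a multigene family with near-identical copies, so its counts are uncertain too. NBPF3 was also low, with 44, 37 and 40 counts untreated against 12, 8 and 12 with r-CRMP2. It entered the fit through the untreated group. The strand setting of the counting is not given in the sources used here, so antisense reads could be included. EDNRB-AS1, antisense to EDNRB, had 0 and 1 summed counts, LOC100506801 inside ECE1 16 in each group, and ENSG00000236936.1, also antisense to ECE1, 1 untreated and 11 with r-CRMP2. GTF2F2P1, a pseudogene within EDNRA, had 1 and 0 counts, and ENSG00000233379.1 within EDNRB had none. CAMK2N2, opposite to ECE2 on the other strand, had 250 and 189 counts (log2 fold change -0.09, SE 0.17, adjusted p = 0.713, edgeR).

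Genes that process, transmit and control endothelin signals were examined in 5 lists of 66 genes in all. Of the 51 tested, 3 rose and 3 fell past both thresholds (11.8%, against 14.0% of all tested genes), and the median log2 fold change was 0.15 against -0.03 over all tested genes. These counts depended on the scale, with 0 higher and 5 lower with library totals alone. Among the genes that fell, PLCB2 and PRKCH were low and entered the fit through the untreated group. At the adjusted p threshold alone, 22 were higher and 13 lower. Of all 16222 tested genes, 4574 were higher and 4875 lower at that threshold (58.2% in either direction). Processing and clearance had 8 of 11 genes tested and none past both thresholds, with a median of 0.02. FURIN, which cuts the precursors, had 166.2 ± 10.5 CPM untreated and 154.5 ± 2.88 CPM with r-CRMP2 (SD, n = 3; log2 fold change -0.11, SE 0.05, adjusted p = 0.161, edgeR). MME (neprilysin), which degrades endothelins, had a log2 fold change of -0.13 (SE 0.04, adjusted p = 0.0849). MMP2, which can also cleave big endothelin, was at 0.90 (SE 0.04, adjusted p = 6.61e-10), and PCSK7, a furin-type protease, at -0.92 (SE 0.06, adjusted p = 3.41e-08), both short of the fold threshold.

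In the Gq/11 and phospholipase C arm, 16 of 18 genes were tested, 2 fell and none rose (all tested genes: 8.86% and 5.12%), with a median of -0.04. PLCB2, a phospholipase C gene, had 15, 15 and 18 counts untreated and 5, 3 and 0 with r-CRMP2 (log2 fold change -2.22, SE 0.59, adjusted p = 0.00405, edgeR). PRKCH, a protein kinase C gene, had 25, 19 and 24 counts against 4, 13 and 8 (log2 fold change -1.11, SE 0.42, adjusted p = 0.0333, edgeR). Both were low and entered the fit through the untreated group. The PRKCH call was lost with DESeq2 (adjusted p = 0.0718) and without any 1 library other than r-CRMP2 replicate 2 (adjusted p from 0.0579 to 0.166, edgeR). The G protein subunit genes GNAQ and GNA11, both abundant, had log2 fold changes of 0.62 and -0.30, under the fold threshold.

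No gene of the Gi, Gs and adenylyl cyclase arm passed both thresholds (8 of 13 tested, median 0.30), against 14.0% of all tested genes. Among 9 tested of 12 desensitization genes (median 0.02), ARRB1 alone passed both and fell, as did 8.86% of all tested genes. With so few genes, nothing is read from the counts of these lists. ARRB1 encodes beta-arrestin 1, which binds active endothelin receptors. Its libraries gave 45.3, 44.4 and 45.9 CPM against 20.6, 15.1 and 14.2 CPM (log2 fold change -1.44, SE 0.17, adjusted p = 1.08e-09, edgeR). Its relative ARRB2 had 54.1 ± 4.37 CPM and 60.9 ± 0.724 CPM (SD, n = 3).

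**Figure D4:**
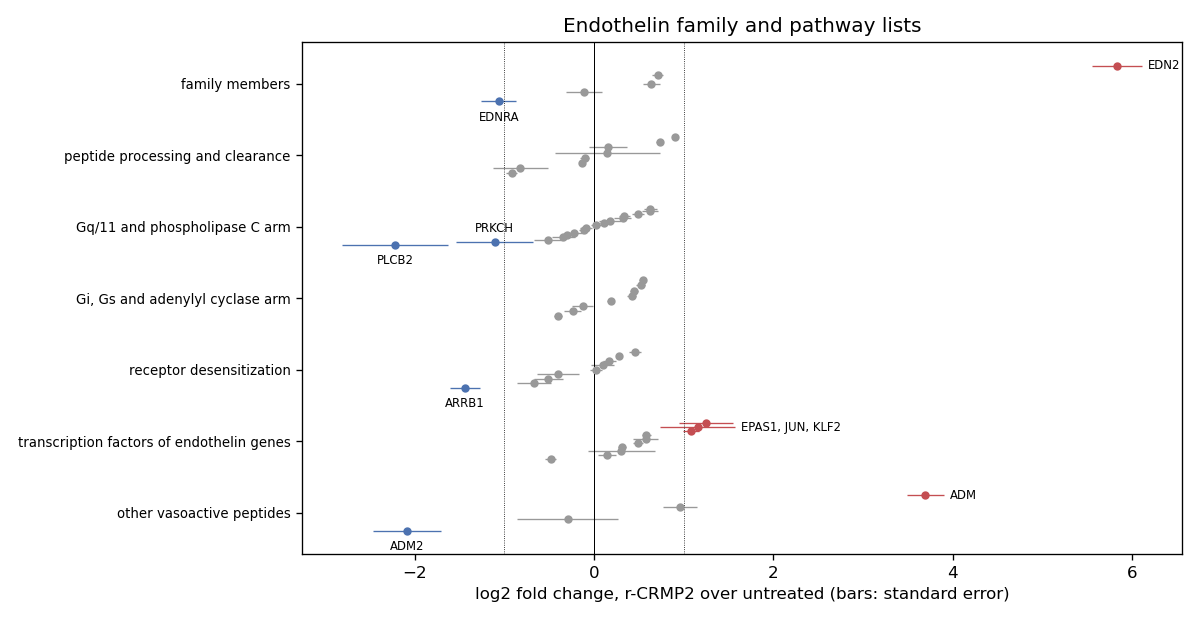
Log2 fold change (r-CRMP2 over untreated) of every tested gene of the family and of each pathway list, with standard errors; dotted lines mark the fold threshold of 1 in either direction, red and blue the genes higher and lower past both thresholds. Most genes of the lists lie between the dotted lines, and EDN2 at 5.83 lies beyond all of them.

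Among 12 transcription factor genes linked to endothelin genes, 10 were tested, 3 rose and none fell (all tested genes: 5.12% and 8.86%), with a median of 0.53. EPAS1 (HIF-2alpha) had 172.0, 155.1 and 141.2 CPM untreated and 320.7, 326.0 and 345.4 CPM with r-CRMP2 (log2 fold change 1.08, SE 0.09, adjusted p = 2.68e-10, edgeR). JUN, an AP-1 subunit, was at 1.16 (SE 0.42, adjusted p = 4.02e-05) and KLF2, a flow-responsive factor of endothelium, at 1.25 (SE 0.30, adjusted p = 1.33e-05). None of these 3 passed the fold threshold with library totals alone (0.77, 0.84 and 0.94), and JUN did not without untreated replicate 1 (0.88). The adjusted p of JUN was 0.00671 with DESeq2. FOS, another AP-1 subunit gene, overlapped between the groups (log2 fold change 0.30, SE 0.37, adjusted p = 0.154, edgeR). HIF1A was at 0.49 (SE 0.06, adjusted p = 2.13e-06, edgeR) and its partner ARNT at 0.31 (SE 0.04, adjusted p = 0.00039, edgeR), both under the fold threshold. With library totals alone HIF1A was at 0.18 (adjusted p = 0.0173, edgeR) and ARNT at 0.00 (adjusted p = 0.996, edgeR). GATA4 was at 0 counts in all 6 libraries.

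The other vasoactive peptide genes were mostly too low to test (4 of 16 tested). ADM, the gene of adrenomedullin, a vasodilator, rose from 27.5 ± 3.08 CPM to 356.4 ± 76.2 CPM (SD, n = 3; log2 fold change 3.70, SE 0.21, adjusted p = 5.59e-14, edgeR). ADM2, its relative, fell from 4.84 ± 0.631 CPM to 1.13 ± 0.519 CPM (SD, n = 3; log2 fold change -2.09, SE 0.38, adjusted p = 8.08e-07, edgeR). APLN (apelin) was at 0.96 (SE 0.19, adjusted p = 7.47e-06), just under the fold threshold, and AGT at -0.29 (SE 0.56, adjusted p = 0.628).

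The genes most like EDN2 over the 6 libraries were looked up among 12704 genes with a mean normalised count of at least 50. By Pearson r of log2 CPM they were RIOK3 (0.9998), an atypical kinase, FOSL1 (0.9997), an AP-1 subunit, ADM (0.9996), VEGFA (0.9995), the vascular growth factor, and RBM39 (0.9995), a splicing factor. They differed in size of change, with log2 fold changes of 1.36, 2.57, 3.70, 2.35 and 0.87. All 6 points come from 2 groups of 3, and 2277 genes had r above 0.95, so that a high r mostly restates the contrast.

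**Figure D5:**
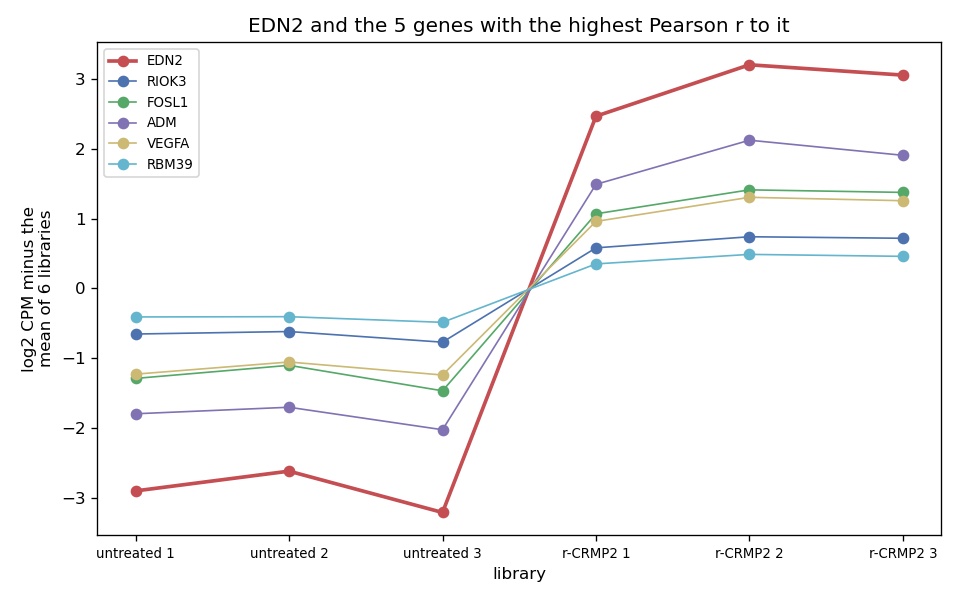
Log2 CPM minus the mean of the 6 libraries for EDN2 and the 5 genes with the highest Pearson r to it, by library. All 6 lines have the same shape, with EDN2 spanning the widest range and RBM39 (log2 fold change 0.87) the narrowest.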

How the data were processed

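RNA-seq was analysed in 6 libraries, 3 untreated and 3 r-CRMP2. The labels give Trizol extraction and the paper's methods an RNA-Quick kit, followed by poly-A selection and paired-end Illumina sequencing. The submitters' processing notes name FastQC, HISAT2, DESeq2 and hg19, without versions. The counting tool, annotation and strand setting are not given in the sources used here. The deposited tables hold raw read counts per gene, and the authors also deposited TPM, which equalled counts over gene length, rescaled, within 4.72e-06. Gene symbols had been turned into dates in 27 entries, which does not affect the genes named here.

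Counts were fitted across all genes with edgeR 4.0.16 (quasi-likelihood test, TMM, filterByExpr defaults, R 4.3.3) and Benjamini-Hochberg adjusted. Thresholds were an adjusted p of 0.05 and an absolute log2 fold change of 1. CPM are counts scaled to a common library size with TMM (factors 0.8785 to 1.123). Standard errors come from the spread of log2 CPM between libraries (prior count 2). The same script was tested on simulated data. Leaving out each library, library totals alone, RLE factors, no low-count filter, DESeq2 1.42.0, a replicate block and other settings were tried.

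The members and gene lists were chosen with earlier results of these data known. Members carry no p-value, and gene sets were not tested. A further list is not reported here. Genes named are the members, up to 3 per direction and list past both thresholds, HIF1A, EPAS1 and ARNT, the neighbours of EDN2, genes overlapping members, and the 5 genes most like EDN2. Other genes with values (such as FURIN, MME, MMP2, PCSK7, GNAQ, GNA11, ARRB2, APLN, AGT and the further neighbours) were chosen for their role or position after their values were seen. Coordinates of genes are as deposited, and sequences come from RefSeq (GRCh38.p14) and GENCODE (GRCh38).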

Additional observations from a re-analysis of the deposited data

How the results depend on the processing

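EDN2 kept its direction in every alternative run, from 5.49 with deposited TPM to 6.04 on the log2 scale (5.70 to 6.04 when 1 library was left out). Library totals alone gave 489 genes higher and 2553 lower in place of 831 and 1437, 0 higher and 5 lower among pathway genes in place of 3 and 3, and 0 higher among neighbours in place of 1. Without the fold threshold, 4574 and 4875 genes, 22 and 13 pathway genes, and 9 and 10 neighbours were higher and lower. Leaving out 1 library gave 803 to 927 genes higher and 1386 to 1621 lower, and 2 to 3 pathway genes higher. Of pathway genes 2 to 5 were lower, the 5 without r-CRMP2 replicate 2. The cause was not tested. Of the genes followed through the alternatives (the members, the pathway and peptide genes named by rule, and the neighbours of EDN2), none past both thresholds changed sign.

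Replicate numbers are shared by the groups but did not pair the libraries over all tested genes (correlations of same-numbered deviations -0.0209, 0.0038 and -0.0252). Single genes could differ. JUN and KLF2 were lowest in replicate 1 of both groups, and under a replicate block their adjusted p was 7.81e-13 and 6.08e-08 (edgeR). EPAS1, by contrast, was highest in untreated replicate 1. Under a replicate block, EDN2 was at 5.81, EDNRA at -1.05, and 819 genes were higher and 1437 lower. Depth limits EDN3, EDNRB and EDNRA, with at most 3, 14 and 34 counts per library.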
